A study of Bos taurus with 24 samples.

Results

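The 6 genes described here encode the main proteins of cow's milk, the caseins CSN1S1, CSN1S2, CSN2 and CSN3 and the whey proteins LALBA and PAEP. They were followed by Ensembl ID through 24 rRNA-depleted RNA-seq libraries of Holstein dairy cows and make up 6 of the 27607 gene IDs in the count tables. All 6 IDs had reads in both tissues. The IDs are ENSBTAG00000007695 for CSN1S1, ENSBTAG00000005005 for CSN1S2, ENSBTAG00000002632 for CSN2, ENSBTAG00000039787 for CSN3, ENSBTAG00000005859 for LALBA and ENSBTAG00000014678 for PAEP. The pairing of these IDs with symbols came with the gene list and not from the deposited tables. Protein and promoter sequences of these genes were not used here.

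Liver and mammary gland were biopsied 21 d before expected calving in pregnant multiparous cows whose milking had stopped 60 d before calving, so none of the glands was being milked. From 35 d before expected calving all cows, in 1 barn, received light of 150 lx for 16 h and darkness for 8 h each day. Control cows (C) kept fixed clock times of light, whereas phase shift cows (PS) had their light period brought forward by 6 h at intervals of 3 d, for 2 weeks up to the biopsy. The hour of biopsy was not given. Each tissue has 6 control and 6 phase shift libraries, each from a separate cow. The library names carry 13 cow labels, 6 C and 7 PS, although the design describes 6 PS cows, and 11 cows have both tissues. Each treatment had its own side of the barn, so side and treatment cannot be told apart. Library totals ran from 5046912 to 13062895 counts in mammary and from 7676913 to 26927601 in liver. No genes other than the 6 could be named, so the tissue labels were checked against these genes alone.

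Casein and whey protein genes are transcribed in the secretory epithelium of the mammary gland, where prolactin acting through the transcription factor STAT5, together with glucocorticoids, drives them. Their transcripts fall when milking stops and rise again as the gland prepares for lactation. CSN1S1, CSN1S2 and CSN2 encode the calcium-sensitive caseins that fill the casein micelle, and CSN3 encodes kappa-casein, which covers and stabilises its surface. LALBA encodes alpha-lactalbumin, the regulatory subunit of lactose synthase, and PAEP encodes beta-lactoglobulin, the lipocalin that is the main whey protein of ruminants. In the RefSeq annotation of the later assembly ARS-UCD2.0, the casein genes lie on 1 chromosome in the order CSN1S1, CSN2, CSN1S2, CSN3, with 4 other protein-coding genes among them, while LALBA and PAEP lie on separate chromosomes.

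In the mammary gland the 6 genes together took between 0.0232% and 10.3% of all counts, a 445-fold range between cows at the same stage. Control cow 25C had the highest summed share, 10.3% (95% exact Clopper-Pearson interval 10.3 to 10.4%). Phase shift cow 23PS followed with 6.16%, and control cow 24C with 2.77%. Control cows 21C and 19C had 1.68% and 0.956%, phase shift cow 22PS had 0.849%, and control cow 23C had 0.484%. The remaining phase shift cows had 0.337% (24PS), 0.153% (21PS), 0.0898% (26PS) and 0.0491% (19PS). The lowest share, 0.0232% (interval 0.0224 to 0.0241%), belonged to control cow 26C, whose library was the deepest of the mammary libraries. Both the highest and the lowest library were thus controls. Whether the summed shares form clusters was not tested. By summed CPM, 25C and 23PS stood apart from the rest of their treatment groups, as given under the flagged results. Intervals of this kind cover counting error only, which was far smaller than the differences between cows. In bulk tissue, fewer secretory cells and less transcript per cell cannot be told apart.

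**Figure D1:**
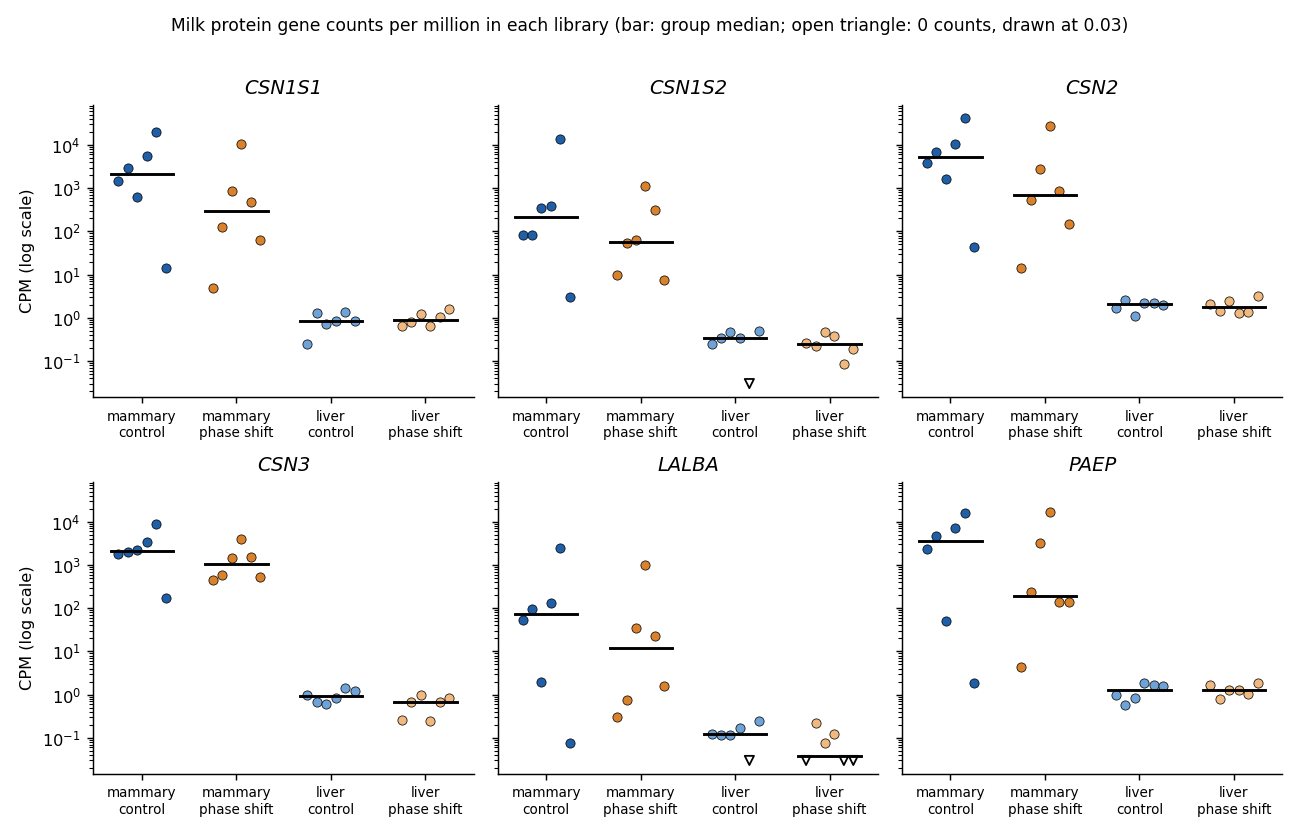
Level (CPM, counts scaled to a library total of 1000000, log axis) of each of the 6 genes in every library, by tissue and treatment; each point is 1 cow, bars are group medians, and open triangles are libraries with 0 counts. Mammary points spread over several orders of magnitude within each treatment, CSN3 least, while liver points lie in a narrow band at a few CPM or less.

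Beta-casein, CSN2, was the single most abundant gene of the mammary library of control cow 25C and ranked 9521st in that of phase shift cow 19PS. In CPM, the count scaled to a library total of 1000000, its level was 42.4 (26C), 1607 (23C), 3779 (19C), 6988 (21C), 10749 (24C) and 42004 (25C) in control cows. In phase shift cows it was 14.2 (19PS), 149 (26PS), 530 (21PS), 869 (24PS), 2824 (22PS) and 27995 (23PS). The groups overlapped over nearly the whole range, with 1 phase shift cow below every control cow and 1 control cow above every phase shift cow. From the lowest to the highest mammary library CSN2 differed 2954-fold.

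CSN1S1, the calcium-sensitive alpha-s1-casein, put the 12 mammary libraries in exactly the same order as CSN2. Its level in control cows ran from 14.1 CPM (26C) through a median of 2170 to 20309 CPM (25C), and in phase shift cows from 4.95 CPM (19PS) through a median of 303 to 10372 CPM (23PS). The 2 extremes were 4106-fold apart.

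CSN1S2, the other alpha-s-casein, had its highest level in control cow 25C, at 13358 CPM, where the next control cow, 24C, had 395 CPM and phase shift cow 23PS had 1103 CPM. The other control cows had 352 (23C), 81.4 (21C), 80.5 (19C) and 2.99 CPM (26C). Among phase shift cows the remaining values were 318 (24PS), 63.4 (22PS), 52.4 (21PS), 9.58 (19PS) and 7.43 CPM (26PS). The single library of 25C held 79.4% of all CSN1S2 counts in mammary, against 38.0% of the CSN1S1 counts and 33.8% of the CSN2 counts.

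Kappa-casein, CSN3, varied least. It stood at 171 (26C), 1838 (19C), 1989 (21C), 2218 (23C), 3411 (24C) and 8969 CPM (25C) in control cows. Phase shift cows had 457 (19PS), 537 (26PS), 583 (21PS), 1473 (22PS), 1544 (24PS) and 3938 CPM (23PS). The range over the 12 libraries was 52.5-fold. The treatment groups overlapped, with 1 control cow below every phase shift cow and 1 control cow above every phase shift cow.

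In control cows LALBA was 0.0766 CPM (26C, a single count), 2.01 (23C), 53.5 (19C), 93.5 (21C), 129 (24C) and 2539 CPM (25C). In phase shift cows it was 0.309 (19PS, 3 counts), 0.756 (21PS), 1.58 (26PS), 22.4 (24PS), 34.5 (22PS) and 1020 CPM (23PS). High and low libraries again occurred in both treatments.

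PAEP was the only one of the 6 genes for which a phase shift cow was the highest, 23PS at 17212 CPM, just above control cow 25C at 16109 CPM. The other controls had 7372 (24C), 4753 (21C), 2328 (19C), 51.8 (23C) and 1.84 CPM (26C). The other phase shift cows had 3250 (22PS), 234 (21PS), 142 (24PS), 139 (26PS) and 4.33 CPM (19PS). Its range was 9368-fold.

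This spread placed the 6 genes among the most variable of the mammary transcriptome between cows, CSN3 less so than the others. Among the 16346 genes with a mean of at least 1 CPM in mammary, the SD of log2 CPM over the 12 libraries (n = 12) was 4.43 for PAEP, the largest of all, and 4.24 for LALBA, the second largest. It was 3.71 for CSN1S1 (rank 6), 3.59 for CSN2 (rank 7), 3.34 for CSN1S2 (rank 9) and 1.57 for CSN3 (rank 295). A larger SD than that of CSN3 was found in 1.80% of these genes. The median SD over all these genes was 0.46.

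The libraries of 21PS and 26C were unlike the other mammary libraries over all genes, with a median rank correlation to the rest of 0.898 and 0.862, against 0.950 to 0.970 in the other 10. They did not share a milk protein level: 26C was the lowest of all, while 21PS, at 0.153%, lay above 26PS, 19PS and 26C. CSN2 was 42.4 CPM in 26C and 530 CPM in 21PS, and PAEP was 1.84 CPM and 234 CPM. Among the other 10 libraries the summed share still ran from 0.0491% to 10.3%. The 50 most abundant genes took 35.7% of counts in 21PS and 38.1% in 26C, against 16.9% to 26.5% in the other 10. This lowers the share left for other genes. Scaled to the counts outside those 50 genes, the sum was 375 CPM in 26C, still the lowest, 612 CPM in 19PS and 2376 CPM in 21PS.

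The make-up of the 6 genes changed with their summed level. Counts of different genes are not adjusted for transcript length, so the shares below compare libraries and not genes. CSN3 supplied 93.2% of the 6 genes' counts in 19PS, 73.6% in 26C and 59.8% in 26PS, the 3 libraries of lowest summed share. It supplied 38.1% in 21PS, 45.8% in 24PS and 45.8% in 23C, then 17.3% in 22PS, 19.2% in 19C, 11.9% in 21C and 12.3% in 24C. In the 2 libraries of highest summed share it supplied 6.39% (23PS) and 8.68% (25C). CSN2 went the other way, from 2.90% in 19PS and 18.3% in 26C to 45.4% in 23PS and 40.7% in 25C. The ratio of CSN3 to CSN2 counts accordingly ran from 0.141 in 23PS to 32.2 in 19PS. Because every share is a part of the same sum, these shares cannot vary independently of each other.

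**Figure D2:**
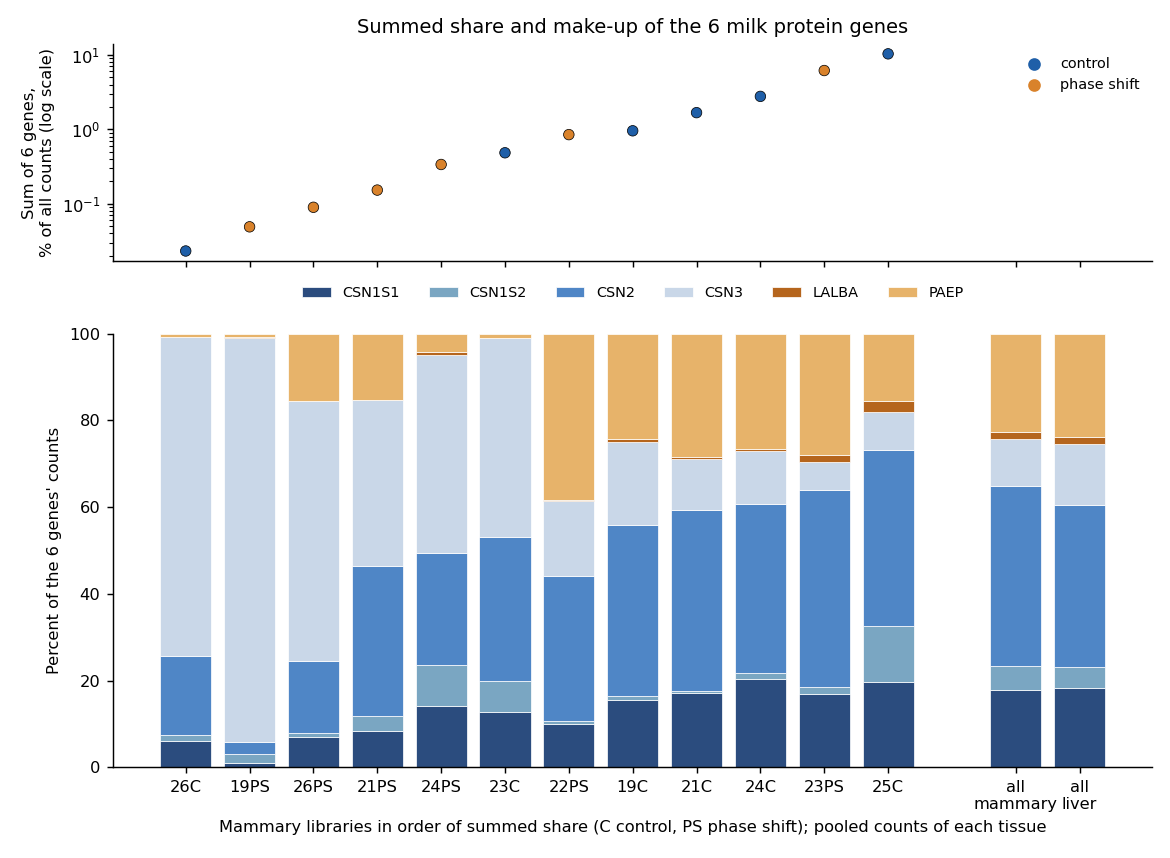
Upper panel: share of all counts taken by the 6 genes in each mammary library (log axis), ordered from low to high. Lower panel: percent of the 6 genes' counts from each gene in the same libraries and in the pooled counts of each tissue; CSN3 falls from 93.2% in 19PS to 6.39% in 23PS as the sum rises, and the pooled mammary bar is mostly 3 libraries, with 83.7% of its counts.

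Whey protein genes did not keep a fixed proportion to caseins. Casein counts over whey counts were lowest in 22PS, at 1.59, and stood between 2.38 and 4.54 in 23PS, 21C, 24C, 19C and 25C. They were 5.40 in 26PS and 5.52 in 21PS, and reached 19.5 in 24PS, 89.1 in 23C, 105 in 19PS and 120 in 26C. The 2 whey genes also parted from each other. PAEP over LALBA ran from 6.35 in 25C to 94.3 in 22PS and 309 in 21PS, with a median of 34.6. In 23C this ratio was 25.7, and both whey genes were low against CSN2. Its PAEP was only 0.0322 of its CSN2 count, where the median library had 0.528 and 22PS had 1.15. CSN2 over LALBA was lowest in 25C, at 16.5, and in 23PS, at 27.5, and the median was 78.3. It did not follow the summed level throughout, since 24C, the next library in summed share, had 83.3, while the low libraries 24PS and 19PS had 38.9 and 46.0, the latter from 3 counts of LALBA. The highest ratios were 798 in 23C, 702 in 21PS and 554 in 26C. They rest on 11, 7 and 1 counts of LALBA, so their order is uncertain.

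Among the caseins, CSN2 and CSN1S1 kept the steadiest ratio, from 1.82 in 24PS to 4.13 in 21PS with a median of 2.58. The ratio of CSN1S2 to CSN1S1 ran from 0.0285 in 21C to 1.94 in 19PS. It was 0.658 in 25C, 0.667 in 24PS and 0.573 in 23C, but 0.106 in 23PS and 0.0699 in 24C. Cows of neighbouring CSN1S1 level thus differed in CSN1S2, as in 23C with 615 CPM of CSN1S1 and 352 CPM of CSN1S2, and 22PS with 849 and 63.4 CPM.

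Across the 12 mammary libraries the genes moved together. Correlations of log2 CPM (prior count 2) were computed for all 15 pairs. The closest pair was CSN1S1 and CSN2, with Pearson's r of 0.996 and Spearman's rho of 1 (permutation p = 1e-05 for each, the smallest these permutations can give, and 5e-05 and 3.75e-05 after Benjamini-Hochberg adjustment over the 15 pairs). The loosest was CSN1S2 and PAEP, with r of 0.73 (permutation p = 0.00639, adjusted 0.00639) and rho of 0.755 (permutation p = 0.00588, adjusted 0.00588). The median r was 0.924. Without the 2 libraries farthest from the median, r was still 0.992 for CSN1S1 and CSN2 and fell to 0.55 for CSN1S2 and PAEP. Without 21PS and 26C, r ran from 0.62 to 0.997 over the pairs. Within the 6 controls r ran from 0.73 to 0.999 over the pairs, and within the 6 phase shift cows from 0.72 to 0.994. All genes of a library share its total count.

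**Figure D3:**
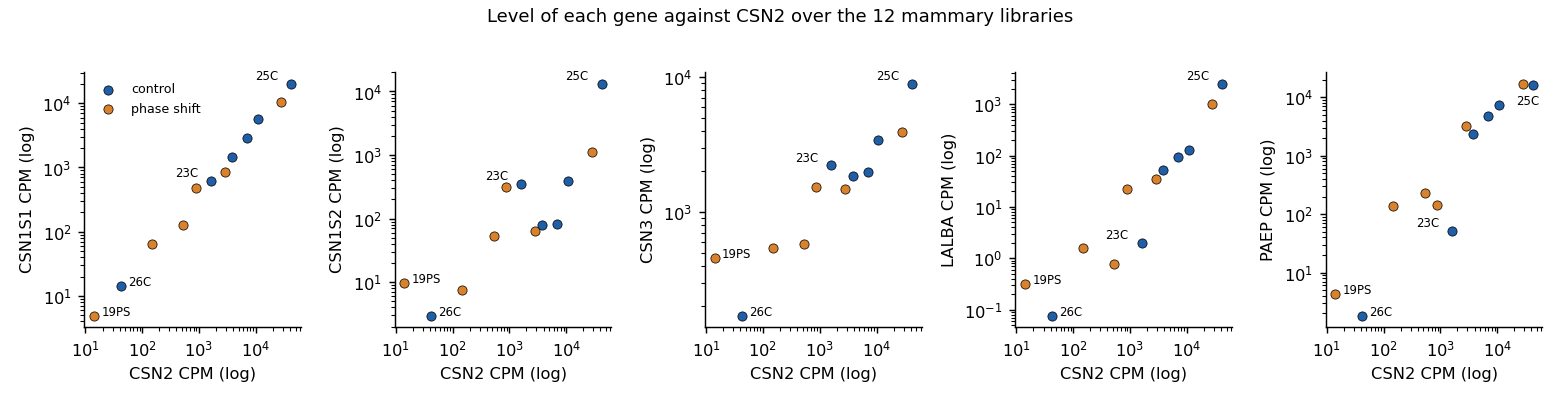
CPM of each of the other 5 genes against CSN2 in the 12 mammary libraries (both axes log), coloured by treatment. CSN1S1 follows CSN2 closely (r = 0.996), while 23C lies low for PAEP and LALBA and 25C lies high for CSN1S2.

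Phase shift against control in mammary asks whether 2 weeks of moved light cycles changed the preparation of the gland for milk synthesis at this stage. None of the 6 genes passed the edgeR quasi-likelihood test, nor did any other gene: 0% of the 15547 tested genes were called. At an unadjusted p under 0.05 the members counted 0 of 6, against 4.75% of all tested genes (739). Without phase shift cow 23PS they counted 5 of 6, all but PAEP, against 8.07% of all tested genes (1251 of 15510), and none passed after adjustment. The genes moved together (median r 0.924), so the members are not independent observations in such a count. Cow 23PS was the highest phase shift cow for all 6, so leaving it out lowered every fold together. Under each of the other fits made without 1 library the members counted 0 of 6. All 6 log2 fold changes (phase shift minus control) were below 0, with a median of -1.23 against -0.0081 over all tested genes. Their standard errors of 0.75 to 1.96 compare with a median of 0.23 over all genes.

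CSN3 had the most precise estimate, a log2 fold change of -1.12 (SE 0.75, 95% confidence interval -2.75 to 0.50, edgeR adjusted p = 0.923), which leaves room for anything between 0.149 and 1.42 times the control level. CSN1S2 had the largest, -3.22 (SE 1.77, interval -7.06 to 0.61, edgeR adjusted p = 0.923). For CSN2 the log2 fold change was -0.96 (interval -4.28 to 2.35, edgeR adjusted p = 0.973) and for CSN1S1 it was -1.34 (interval -4.74 to 2.07, edgeR adjusted p = 0.950). LALBA stood at -1.36 (interval -5.61 to 2.89, edgeR adjusted p = 0.964) and PAEP at -0.49 (interval -4.20 to 3.22, edgeR adjusted p = 0.989). Each of the 6 intervals included a log2 fold change of 0. For none of the 6 genes were the treatment groups free of overlap, which occurred for 0.167% of tested genes.

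These folds rest on single cows. Without control cow 25C the log2 fold change was 0.03 for CSN1S1, 0.63 for CSN1S2, 0.36 for CSN2, 1.84 for LALBA and 0.39 for PAEP, all turned to the positive side, and -0.36 for CSN3 (edgeR adjusted p of 0.9993 to 0.9997). Without phase shift cow 23PS it was -4.20 for CSN1S1, -4.89 for CSN1S2, -3.71 for CSN2, -1.83 for CSN3, -5.52 for LALBA and -2.84 for PAEP (edgeR adjusted p of 0.613 to 0.691). Without 21PS and 26C, the libraries unlike the rest, it was -1.34 for CSN1S1, -3.28 for CSN1S2, -0.98 for CSN2, -1.23 for CSN3, -1.35 for LALBA and -0.50 for PAEP. By limma-voom, which averages log levels, it was -2.57, -1.54, -2.31, -0.95, -1.69 and -1.24 in the same order, and no gene passed. Medians and means of the groups gave different ratios: the phase shift median was 0.130 of the control median for CSN2, 0.0531 for PAEP and 0.489 for CSN3, while the ratio of means was 0.497, 0.685 and 0.459.

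**Figure D4:**
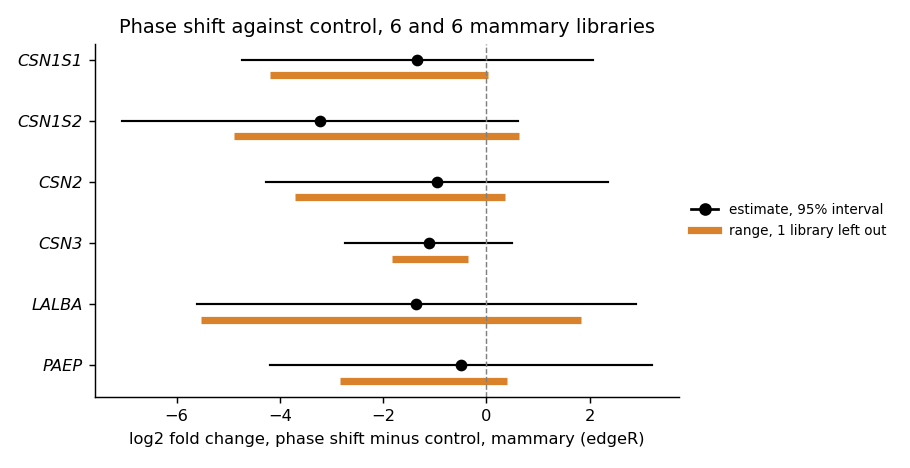
Log2 fold change of each gene in mammary, phase shift minus control (edgeR), as a point with its 95% confidence interval (n = 6 and 6); the orange bar is the range of the estimate when 1 library at a time is left out. Every interval crosses 0, and leaving out single cows moves 5 of the 6 estimates across 0.

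In liver, which makes no milk, the 6 genes were detected at low counts in every library as a sum. Their sum took 3.82 CPM (23C) to 7.65 CPM (26PS), a 2.00-fold range, from 31 to 206 counts per library. CSN2 ran from 1.07 to 2.53 CPM in control livers (median 2.06) and from 1.26 to 3.19 CPM in phase shift livers (median 1.77). PAEP ran from 0.575 to 1.83 CPM (median 1.27) and from 0.783 to 1.86 CPM (median 1.28), and CSN1S1 from 0.244 to 1.34 CPM (median 0.838) and from 0.629 to 1.597 CPM (median 0.906). CSN3 had 0.597 to 1.46 CPM (median 0.906) in control and 0.251 to 0.999 CPM (median 0.678) in phase shift livers. CSN1S2 did not exceed 6 counts in any liver and had 0 in 25C. LALBA had at most 2 counts, and 0 in 25C, 19PS, 25PS and 26PS. A count of 0 allows up to 3 counts, which is 0.365 CPM in 25C and 0.111 CPM in 26PS, the deepest library.

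Only CSN2 and PAEP passed the count filter in liver, and neither passed the test between treatments. The log2 fold change was 0.13 for CSN2 (SE 0.28, 95% confidence interval -0.48 to 0.74, edgeR adjusted p = 0.934) and 0.17 for PAEP (SE 0.32, interval -0.51 to 0.85, edgeR adjusted p = 0.923). In edgeR 0% of the 13752 liver genes tested were called, with 5.91% (813) at an unadjusted p under 0.05. The treatment groups overlapped for all 6 genes in liver, and were free of overlap for 0.349% of tested genes. Without phase shift cow 26PS the estimate was -0.09 for CSN2 and 0.0098 for PAEP. With any 1 library left out the PAEP estimate reached at most 0.32, without control cow 24C. Whether the response differed between the tissues was tested as an interaction, and no member passed (edgeR adjusted p of 0.853 to 0.9999, with 0% of 16656 genes called and 6.67% at an unadjusted p under 0.05).

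CSN2 and PAEP, the members that passed the count filter in liver alone, were higher in mammary than in liver. The log2 difference averaged over treatments was 10.97 for CSN2 (SE 1.24, edgeR adjusted p = 2.91e-08) and 10.71 for PAEP (SE 1.38, edgeR adjusted p = 2.60e-07), where 72.8% of tested genes were called, 38.9% higher and 33.9% lower in mammary. CSN1S1, CSN1S2, CSN3 and LALBA entered this fit through their mammary counts and so had to differ. Their log2 differences, given as a description with no test, were 10.76, 10.45, 10.37 and 10.67. This fit took the libraries of a cow as independent. With library totals in place of TMM scaling the median of all genes moved from 0.08 to 1.08, and the calls from 6485 higher and 5647 lower to 12182 and 2484. Every mammary library lay above every liver library for CSN1S1, CSN1S2, CSN2 and CSN3, as it did for 32.6% of tested genes. PAEP at 1.84 CPM and LALBA at 0.0766 CPM in mammary 26C lay within the liver range. The lowest mammary level of CSN3, 171 CPM, was 117-fold above its highest liver level, 1.46 CPM, while for CSN1S1 this gap was 3.097-fold and for CSN2 4.45-fold. With the cow as a block, over the 11 cows with both tissues, the log2 difference was 8.74 for CSN2 (edgeR adjusted p = 2.43e-05) and 8.22 for PAEP (edgeR adjusted p = 0.000372). In that fit the others stood farther apart than without the block, at 9.03 for CSN1S1, 8.58 for CSN1S2, 9.91 for LALBA and 10.001 for CSN3.

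The make-up of the liver counts was compared with that of the pooled mammary counts, of which 3 libraries held 83.7%. Pooled over the 12 livers, 743 counts of the 6 genes divided into 37.6% CSN2 (95% exact Clopper-Pearson interval 34.1 to 41.1%), 24.0% PAEP (20.9 to 27.2%), 18.2% CSN1S1 (15.5 to 21.1%), 14% CSN3 (11.6 to 16.7%), 4.85% CSN1S2 (3.42 to 6.65%) and 1.48% LALBA (0.741 to 2.63%). Pooled mammary counts, 1809113 in number, divided into 41.4, 22.7, 17.8, 10.8, 5.61 and 1.58% in the same order. Of the 6 mammary shares, those of CSN2 and CSN3 fell outside the liver interval, CSN2 narrowly. These intervals cover counting error and not differences between cows, so they do not test the tissues against each other. The liver pool was also uneven, with 27.7% of its counts from 26PS and 49.3% from 3 livers. Liver 26PS alone had 41.7% CSN2. The median mammary library was less like the liver pool, with 28.7% CSN3, 15.5% PAEP and 13.4% CSN1S1. Expressed gene by gene, the pooled liver CPM was 0.0273% of the pooled mammary CPM for CSN2 (exact Poisson interval 0.0242 to 0.0307%), 0.0307% for CSN1S1, 0.0260% for CSN1S2, 0.0283% for LALBA, 0.0318% for PAEP and 0.0389% for CSN3 (0.0318 to 0.0471%). With the median library of each tissue in place of the pool, the ratio was larger and more spread, at 0.0905% for CSN2, 0.115% for CSN1S1, 0.367% for CSN1S2, 0.413% for LALBA, 0.100% for PAEP and 0.0446% for CSN3.

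Of 1861 other genes with at least 10000 pooled mammary counts, 5 had a pooled ratio at or under the highest of the 6 members and 1 under the lowest, and the median ratio was 46.1%. No relation between the liver and the mammary level of the same cow passed a test. Liver counts were low, at 9 to 86 per library for CSN2, 2 to 43 for CSN1S1, 2 to 22 for CSN3 and 5 to 50 for PAEP. Counting error could therefore hide a relation. Over the 11 cows with both tissues, Pearson's r of log2 CPM was 0.03 for CSN2 (permutation p = 0.934), 0.17 for CSN1S1 (permutation p = 0.617), 0.26 for CSN3 (permutation p = 0.447) and -0.23 for PAEP (permutation p = 0.489). Spearman's rho was 0.282, 0.318, 0.345 and -0.0273 (permutation p = 0.402, 0.340, 0.301 and 0.947). Without the 2 cows farthest from the median mammary level r was 0.13, 0.09, 0.50 and 0.08. After adjustment over these 4 genes the lowest permutation p was 0.823 for r and 0.536 for rho. Per the labels' protocols the libraries were multiplexed over 2 lanes; the part of shared lanes in the liver counts was not tested.

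**Figure D5:**
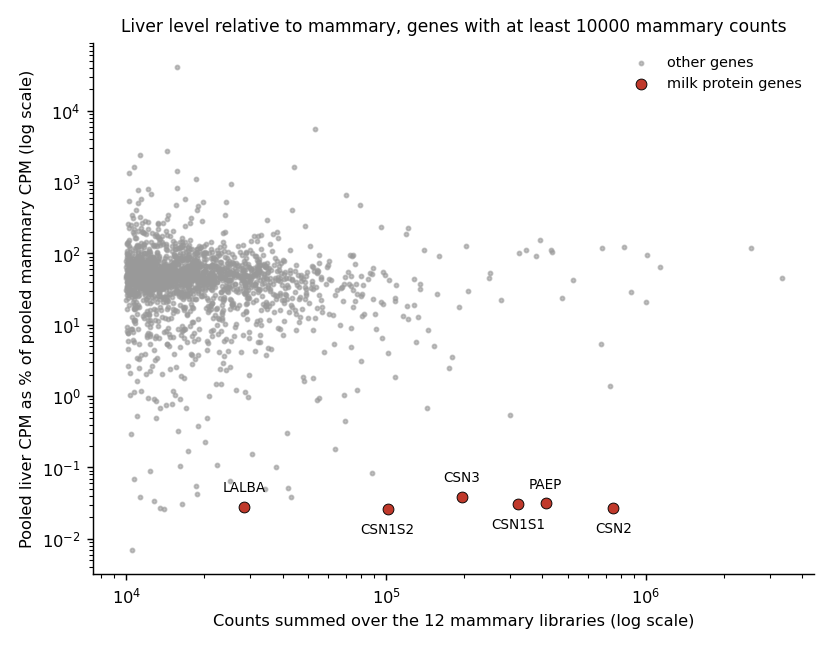
Pooled liver CPM as a percent of pooled mammary CPM (log axis) against pooled mammary counts (log axis) for genes with at least 10000 mammary counts; grey points are the 1861 other genes. The 6 milk protein genes lie at the lower edge, from 0.0260% for CSN1S2 to 0.0389% for CSN3; from the median library of each tissue they run from 0.0446% for CSN3 to 0.413% for LALBA.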

How the data were processed

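Libraries of rRNA-depleted total RNA were read from both ends, per the labels' protocols. Per the submitters' processing notes, the authors used Trimmomatic 0.36, STAR 2.5.2b, featureCounts of Subread 1.5.2, DESeq2 and the build ARS-UCD1.2. For the strand setting and annotation no source was at hand (not given in the sources used here), and overlapping or near-identical genes may share reads. For each tissue the authors deposited raw read counts per Ensembl ID, a normalized signal (each value was checked to be the count divided by 1 factor per library) and regularized log values on the log2 scale. The normalized tables list the genes with summed counts above 120, all 6 members in mammary and CSN1S1, CSN2 and PAEP in liver.

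Levels (CPM) are counts scaled to a library total of 1000000. Intervals and limits from counts cover counting error only. Tests on all genes used edgeR 4.0.16 (R 4.3.3) quasi-likelihood with TMM scaling, filterByExpr (minimum count 10, minimum total 15), and Benjamini-Hochberg adjustment at 0.05. Mammary against liver and the interaction were fitted to all 24 libraries. DESeq2 1.42.0 and limma 3.58.1 were alternatives, and the fit to regularized log values was chosen after seeing the data. Relations used 100000 permutations. On simulated data with 200 changed genes, the edgeR fit recovered 81% of 4-fold changes and 29% of 2-fold changes in mammary (15547 genes), 92.5% and 74% in liver (13752 genes), and 92% and 67.5% between tissues (16656 genes). The changed genes were drawn at random from the tested genes. The members' standard errors in mammary were 0.75 to 1.96, against a median of 0.23 over all genes. These mammary rates therefore do not hold for the members. The members, gene lists and tests were chosen with earlier results of these data known, and all 6 members are named in every comparison. The RefSeq table (37063 genes) pairs 0 of them with an Ensembl ID, so lists of related genes and of cell type markers could not be used, and the tissue labels were checked against the 6 genes only. Mammary against liver was also fitted with the cow as a block, since 11 cow labels occur in both tissues.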

Additional observations from a re-analysis of the deposited data

Results flagged for a closer look

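Within each group of 6 libraries, the highest or lowest CPM of a gene was compared with its neighbour, as a share of the group's range. In 13 of 28 groups of values, sums included, 1 library stood apart by Dixon's 95% critical value, where chance, at about 1 in 20 groups, would give 1.4. These groups are not independent, since the genes moved together and the sum contains them. All 13 were the highest library of a mammary group. On the log2 CPM scale 1 of 24 groups, those of the 6 genes without the sums, had such a library. The rate of 1 in 20 holds for normally distributed values. CPM ranged up to 33164-fold within a mammary group (LALBA in controls), so 1.4 is no firm reference on that scale. The libraries named below stood apart on the CPM scale.

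Control cow 25C stood apart for CSN1S1 at 20309 CPM (next control 5652), CSN1S2 at 13358 (next 395), CSN2 at 42004 (next 10749), CSN3 at 8969 (next 3411) and LALBA at 2539 (next 129), and its sum was 103288 CPM (next 27708). For PAEP it did not.

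Phase shift cow 23PS stood apart for CSN1S1 at 10372 CPM (next phase shift cow 849), CSN1S2 at 1103 (next 318), CSN2 at 27995 (next 2824), CSN3 at 3938 (next 1544), LALBA at 1020 (next 34.5) and PAEP at 17212 (next 3250), and its sum was 61640 CPM (next 8494).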

How the results depend on the processing

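No member passed the threshold between treatments under any setting that gave an adjusted p. In mammary 0 genes were called in edgeR, DESeq2 (985 at unadjusted p under 0.05) and limma-voom (623), and the members' log2 folds stayed below 0 except without control cow 25C. Leaving out 1 library gave ranges of -4.20 to 0.032 for CSN1S1, -4.89 to 0.63 for CSN1S2, -3.71 to 0.36 for CSN2, -5.52 to 1.84 for LALBA and -2.84 to 0.39 for PAEP in mammary, and of -0.092 to 0.23 for CSN2 in liver. Control and phase shift cows that share a number did not deviate together (correlations from -0.38 to 0.17). Cows can be paired without deviating together, so this cannot decide whether the shared number pairs the cows. With that number as a replicate block, CSN1S2 stood at -0.20, CSN3 at -0.56, CSN2 at -2.26 and PAEP at -3.09 (edgeR adjusted p = 1 for each). In liver, DESeq2 called 16 genes among 3890 with an adjusted p, none of them a member, the replicate block called 2, and leaving out 1 library 0 to 1 (the 1 without control cow 26C). For the interaction DESeq2 called 1 gene, no member. LALBA's interaction, -0.29 (SE 9.57), was 0.28 with the cow as replicate block and 0.41 without mammary 21PS and 26C and liver 22PS, and the cause was not tested. DESeq2 gave no adjusted p for any member in liver, nor for CSN1S2 and LALBA elsewhere. Between tissues the members' log2 differences ran from 8.22 with the cow as a block to 11.91 with library totals alone. Liver medians rose when the 50 most abundant genes were left out of the total, from 2.06 to 3.22 CPM for CSN2 in controls. Depth limits CSN1S2 and LALBA in liver, and LALBA in mammary 26C and 19PS, to a few counts.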

Other observations

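For CSN2 and CSN1S1 the nearest of 16340 other genes was ENSBTAG00000039556 (Spearman's rho 0.986 over 12 libraries, a description without a test), which ran from 9.48 to 65.0 CPM in mammary and reached at most 6.56 CPM in liver. For PAEP it was ENSBTAG00000031753 (rho 0.972), from 1.34 to 1483 CPM in mammary and at most 0.600 CPM in liver. A rho above 0.9 with CSN2 was reached by 89 of the 16340 genes, with LALBA by 148, with PAEP by 66, with CSN3 by 50 and with CSN1S2 by 33.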
